A study of Mus musculus with 6 samples.

Results

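Kruppel-like factor (KLF) transcripts were examined in mouse LSK cells, the lineage-negative, Sca1-positive, c-Kit-positive bone marrow fraction that contains hematopoietic stem cells and multipotent progenitors. The members were every probe set of the array whose platform annotation names only 1 gene, that gene being Klf2, Klf3, Klf4, Klf6, Klf7, Klf9, Klf10, Klf12 or Klf13. This gave 35 probe sets of 9 genes, out of 45037 probe sets tested and 18193 genes with a probe set of their own. The number of probe sets per gene was 7 for Klf3 and Klf9, 5 for Klf6 and Klf12, 4 for Klf7, 3 for Klf13, 2 for Klf4 and 1 for Klf2 and Klf10.

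The SRF-null group was 3 arrays of LSK cells from C57BL/6 mice that carried Srf flx/flx and Mx1-Cre, and the control group was 3 arrays from Srf+/+;Mx1-Cre mice of that strain. Both genotypes thus carried the Cre transgene and both received pIpC, a synthetic double-stranded RNA that induces interferon and through it the Mx1 promoter. Injections began at 6 weeks of age and numbered 3, each of 200 µg and 2 days apart, and LSK cells were sorted by flow cytometry 35 days after the last of them. Cells came from pooled animals, and neither labels nor design text state how many went into a pool; p-values therefore cover only the spread between these 6 pools. The Mx1 promoter responds to interferon in many cell types, so deletion of Srf, the gene of serum response factor, need not be limited to LSK cells.

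KLF proteins are transcription factors that bind CACCC elements and GC-rich sequences through C2H2 zinc fingers at their carboxyl terminus, a structure shared with the SP factors. Their amino-terminal parts differ, and some members recruit CtBP or Sin3A corepressors while others recruit histone acetyltransferases. Klf2, Klf4, Klf6 and Klf10 behave as immediate early genes in many cell types, as do the SRF targets Fos and Egr1, and in smooth muscle the Klf4 product opposes SRF and myocardin at contractile genes. SRF binds the CArG box, which the Srf promoter itself contains.

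The promoter sequences of RefSeq (GRCm38.p6, 250 bases before to 50 bases after a start site) held 8 of the 9 members, all but Klf10, and those of Klf9, Klf3 and Klf2 are shown because the first of these carried the clearest difference between genotypes, Klf3 differed in the same direction on all its probe sets, and Klf2 held the only site for the MADS-box factor MEF2 among the members. Capitals mark CACCC or its reverse complement GGGTG in Klf9 and Klf3, and the MEF2 site in Klf2. The windows are chr19:23140976-23141275 for Klf9, chr5:64803271-64803570 for Klf3 and chr8:72318812-72319111 for Klf2, each on the + strand.
Klf9: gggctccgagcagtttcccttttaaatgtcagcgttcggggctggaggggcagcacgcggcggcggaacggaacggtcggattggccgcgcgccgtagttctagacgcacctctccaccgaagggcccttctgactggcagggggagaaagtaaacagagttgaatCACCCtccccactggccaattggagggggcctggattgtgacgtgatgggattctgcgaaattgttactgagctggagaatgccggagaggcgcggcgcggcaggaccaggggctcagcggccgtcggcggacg
Klf3: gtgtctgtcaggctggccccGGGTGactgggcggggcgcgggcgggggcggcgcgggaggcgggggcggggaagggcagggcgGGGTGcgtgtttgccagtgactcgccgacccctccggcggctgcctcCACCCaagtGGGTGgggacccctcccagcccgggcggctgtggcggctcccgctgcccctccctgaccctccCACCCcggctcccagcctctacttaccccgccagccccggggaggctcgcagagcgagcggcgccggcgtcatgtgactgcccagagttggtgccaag
Klf2: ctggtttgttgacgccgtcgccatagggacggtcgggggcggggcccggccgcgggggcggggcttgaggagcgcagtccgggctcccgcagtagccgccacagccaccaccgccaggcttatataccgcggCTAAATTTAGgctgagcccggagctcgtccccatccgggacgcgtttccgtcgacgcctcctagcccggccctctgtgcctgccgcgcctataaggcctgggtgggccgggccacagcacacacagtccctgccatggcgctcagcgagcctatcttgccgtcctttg
A CArG box on either strand was found in 0 of the 8 member promoters and in 1.63% of 32851 promoters. The Srf promoter, on the same build at chr17:46556113-46556412 on the - strand, held 2 of them, CCATATAAGG and CCATAAAAGG. A MEF2 site was found in 1 of the 8 and in 0.557% of all promoters. This motif was added to the search after the sequences were seen, so these shares are a description and not a test. CACCC was found in 6 of the 8 and in 57.5% of all promoters, with 5 matches in Klf3, 3 in Klf7, and 1 each in Klf2, Klf9, Klf12 and Klf13. These matches describe letters in a window and say nothing of whether a factor bound there.

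The deposited values were 1 signal per probe set and array, with medians of 200.5 to 292.1 and upper quartiles of 5024 to 5320 over the 6 arrays. They were converted to log2(signal + 16) and quantile normalized, and levels below are on that scale, averaged per genotype as mean ± SD (n = 3), with differences as SRF-null minus control. Each difference was tested with limma's moderated test with Benjamini-Hochberg adjustment over all 45037 probe sets. The brighter Srf probe set was at 12.60 ± 0.19 on SRF-null arrays and 13.03 ± 0.02 on control arrays, with no overlap between genotypes (difference −0.42, SE 0.14, limma adjusted p = 1). The dimmer Srf probe set differed by 0.10 (SE 0.35), and the files used here do not place either of them relative to the loxP sites. Sex-linked transcripts differed between arrays, with the X-linked Xist at 5.03 on SRF-null replicate 1 and the Y-linked Kdm5d at 4.0 on control replicate 2, against at least 15.13 and 10.54 elsewhere, and for Klf9, Klf3, Klf4 and Klf2 the differences are also given without these 2 arrays. The Y-linked Kdm5d, Eif2s3y and Uty were each higher on every SRF-null array than on any control array, also without those 2, and Kdm5d was at 11.84 to 11.98 on SRF-null arrays and at most 10.57 on control arrays. The sex makeup of the pools thus differed with genotype, and its part in member differences cannot be told apart from that of genotype. Of 8 LSK and stem cell markers 3 were higher and 5 lower, and the groups overlapped in all of them. Slamf1, which marks long-term stem cells within the LSK fraction, was at 11.61, 10.73 and 9.18 on SRF-null arrays, against 11.60, 12.33 and 11.80 on control arrays (difference −1.40, SE 0.62, unadjusted p = 0.0643 by limma). The stem cell regulator gene Mecom differed by −0.36 (SE 0.30) and Kit by −0.19 (SE 0.19), and no probe set named Ly6a, the gene of Sca1, alone.

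Among the KLF genes, Klf9 had lower levels in SRF-null cells on its 5 brightest probe sets, and Klf3 was higher on all 7 of its probe sets by smaller amounts. On the brightest probe set of each gene the groups were apart for Klf9 and overlapped for the other 8 genes, Klf3 included. None of these differences passed adjustment. By limma, 0 of the 35 member probe sets and 0 of all 45037 probe sets (background 0%) had an adjusted p under 0.05, and the smallest adjusted p of a member was 0.931. At an unadjusted p under 0.05 there were 6 member probe sets (17.1%, against a background of 4.39%). These belonged to 2 genes, with 4 lower probe sets of Klf9 (background of lower probe sets 2.02%) and 2 higher ones of Klf3 (background of higher probe sets 2.37%). Probe sets of 1 gene measure the same transcripts, so they are not separate observations. Counted by the brightest probe set of each gene, 1 of 9 members (11.1%) had an unadjusted p under 0.05, against 4.95% of 18193 genes. Groups did not overlap for 8 member probe sets of 3 genes (22.9%, against 9.24%), of which 4 were higher (background 4.74%) and 4 lower (background 4.5%), and for 1 of 9 by brightest probe set (11.1%, against 10.6%), so by gene that count was near the background. Over the 35 member probe sets 17 were higher and 18 lower, with a median difference of −0.01, where the median over all probe sets was 0.

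**Figure D1:**
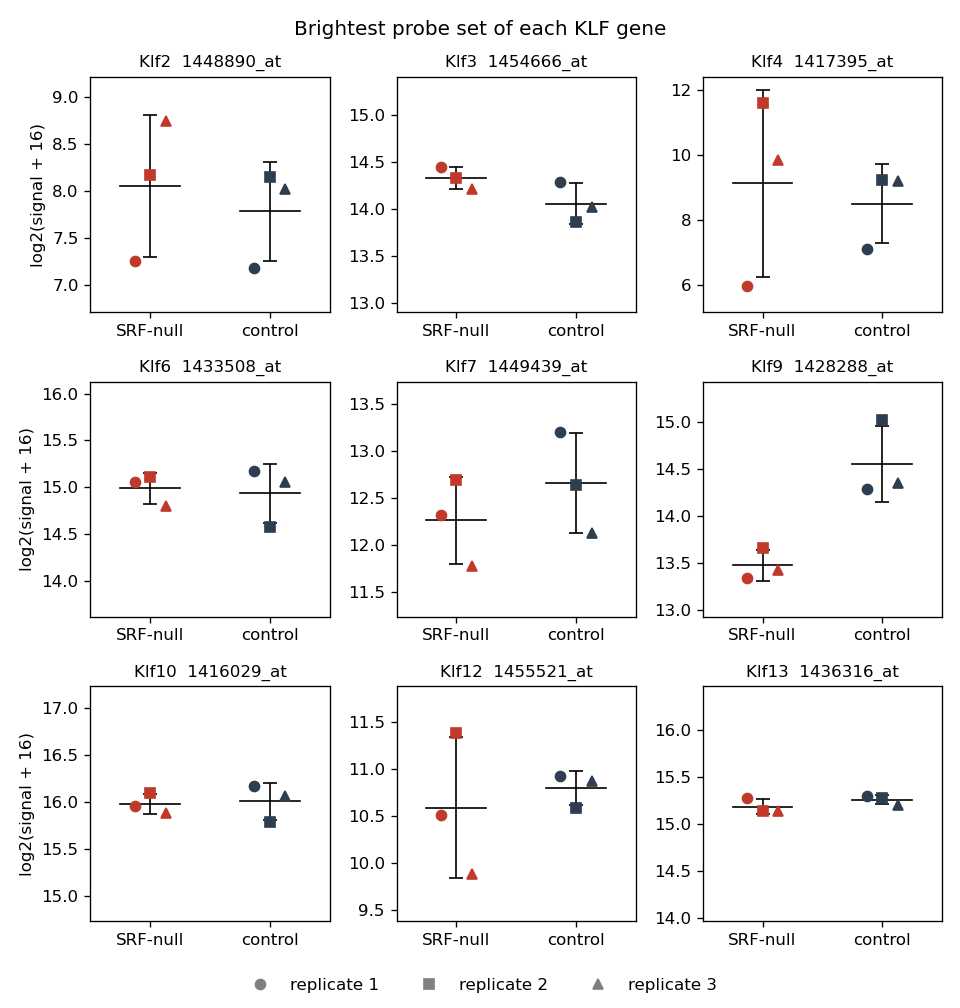
Level of the brightest probe set of each KLF gene on each array, as quantile-normalized log2(signal + 16), with SRF-null arrays in red and control arrays in dark blue, symbols for the replicate number, and bars for mean ± SD (n = 3). Each panel has its own axis; the SRF-null and control arrays are apart in Klf9 and overlap in the other 8 genes.

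**Figure D2:**
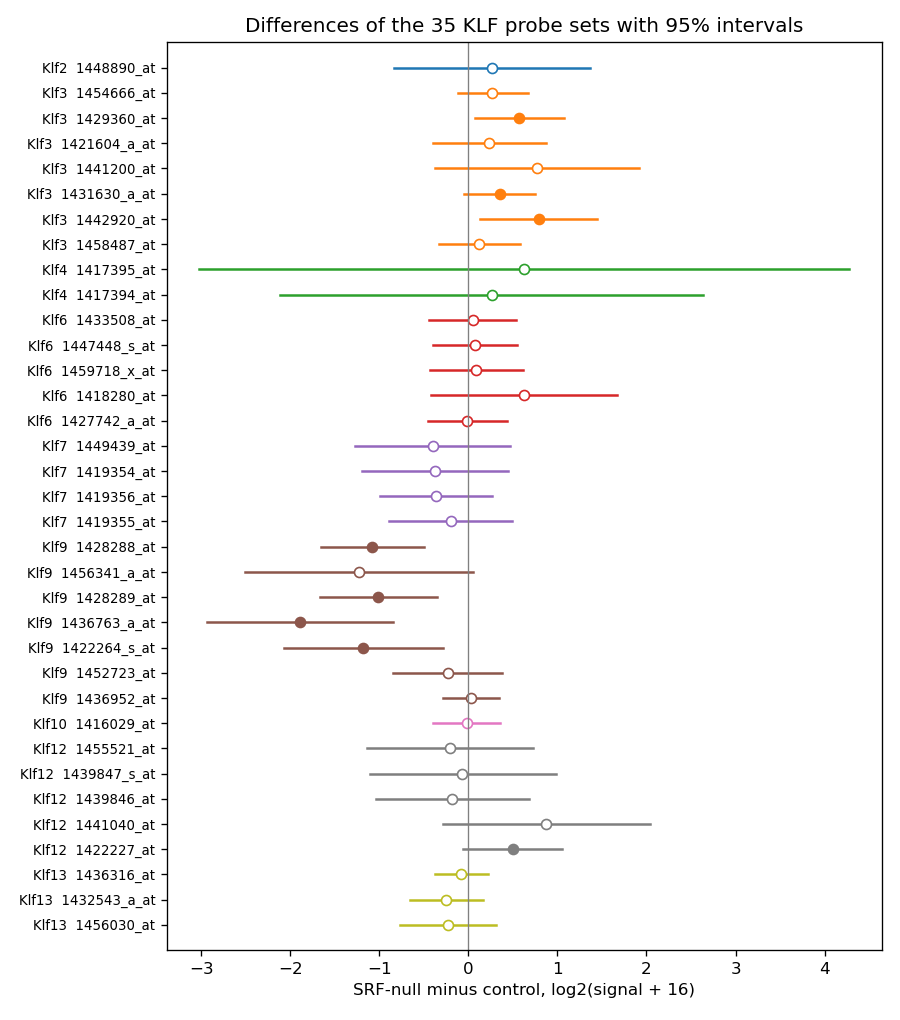
Difference of each of the 35 KLF probe sets, SRF-null minus control on the log2(signal + 16) scale, with limma's 95% interval as a line. Filled points have groups that do not overlap (4 of Klf9, 3 of Klf3 and 1 of Klf12). Of the intervals, 4 of Klf9 lie wholly below 0, and those of Klf3 1429360_at and 1442920_at lie wholly above 0.

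Klf9 encodes a small KLF protein that acts mostly as a repressor and whose gene is induced by glucocorticoid and thyroid hormones. On its brightest probe set, 1428288_at, the deposited signals were 10407, 12639 and 10798 on SRF-null replicates 1 to 3, against 19908, 34154 and 20952 on control replicates 1 to 3. Every SRF-null array lay below every control array, and control replicate 2 was the highest of all. The normalized level was 13.48 ± 0.17 in SRF-null cells and 14.55 ± 0.41 in control cells. The difference was −1.08 (SE 0.23, 95% interval −1.65 to −0.50), a 2.11-fold lower level, with a limma unadjusted p of 0.00381 (limma adjusted p = 0.931), and the probe set ranked 182 of 45037 by p. Arrays of equal number deviated together in these data, and within the number pairs the difference was −0.95, −1.36 and −0.93. Since these are sorted pools, fewer cells with the transcript and less of it per cell cannot be told apart, for this or any other member.

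The other Klf9 probe sets agreed in direction wherever their signal was well above the bottom of the scale. Probe set 1428289_at, annotated to the same sequence record as 1428288_at, gave 6592, 7712 and 6168 on the SRF-null arrays, against 11065, 21226 and 11997 on the control arrays. It differed by −1.01 (SE 0.27, unadjusted p = 0.00966 by limma), again with no overlap of the groups. Probe set 1436763_a_at had the largest difference of any member, with 522, 331 and 234 on the SRF-null arrays, against 989, 2306 and 1067 on the control arrays. Its difference was −1.89 (SE 0.42, 3.71-fold lower, unadjusted p = 0.00431 by limma). On 1456341_a_at the signals were 10332, 20568 and 5467 in SRF-null cells, against 20490, 37964 and 20771 in control cells. Here the groups overlapped on the normalized scale, because SRF-null replicate 2 (14.37) lay above control replicates 1 and 3 (14.33 and 14.34). The difference was −1.23 (SE 0.52, unadjusted p = 0.057 by limma), and in every number pair the SRF-null array was lower, with differences between −1.88 and −0.81. With the replicate number as a block its unadjusted limma p was 0.00714 (adjusted p = 0.58). The same block gave unadjusted limma p-values of 0.00181 for 1428288_at and 0.004 for 1428289_at. For 1436763_a_at the blocked p was larger than the unblocked one, at 0.00751 by limma.

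The dim Klf9 probe sets carried less information. Probe set 1422264_s_at was at 44.1, 22.4 and 30.8 on the SRF-null arrays, against 57.9, 140 and 80.4 on the control arrays. All SRF-null values were below all control values (difference −1.18, SE 0.36, unadjusted p = 0.0177 by limma). The suffix _s_at marks probes that may also match other transcripts. On 1452723_at, annotated to the same sequence record as 1428288_at, the SRF-null arrays lay between the control arrays. Its signals were 16.9, 16.5 and 17.4 against 11.4, 34.4 and 22.8 (difference −0.23, SE 0.25). Probe set 1436952_at was under a signal of 16 on all 6 arrays and differed by 0.03 (SE 0.13).

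**Figure D3:**
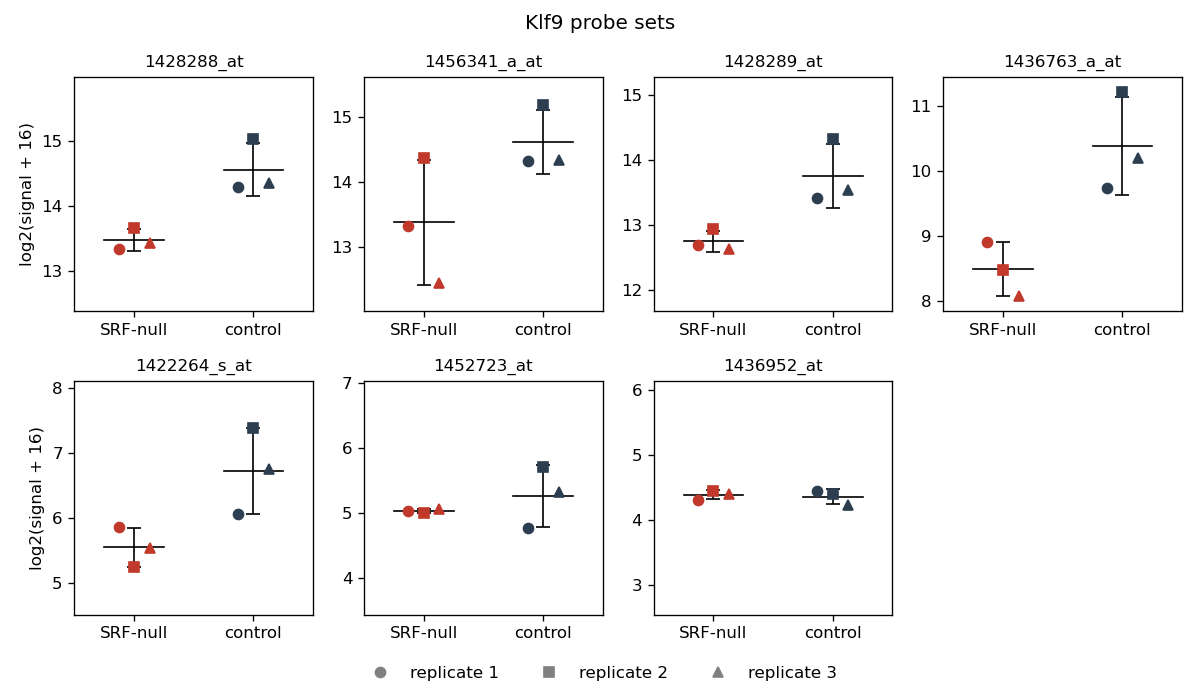
Levels of the 7 Klf9 probe sets on each array, as quantile-normalized log2(signal + 16), brightest probe set at the upper left and dimmest at the end, with mean ± SD (n = 3) and symbols for the replicate number; every panel spans the same range of log2 units. Red SRF-null points lie below all dark blue control points in 1428288_at, 1428289_at, 1436763_a_at and 1422264_s_at.

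The size of the Klf9 difference depended in part on control replicate 2. Without that array 1428288_at differed by −0.84 (SE 0.17, unadjusted p = 0.00441 by limma) and 1436763_a_at by −1.47 (SE 0.31). Without SRF-null replicate 1 and control replicate 2, which leaves 2 arrays a group, 1428288_at differed by −0.77 (SE 0.20, unadjusted p = 0.0196 by limma) and 1436763_a_at by −1.70 (SE 0.29). Over all 15 alternatives 1428288_at ranged from −1.21 to −0.77, with an unadjusted p under 0.05 in each and an adjusted p of 0.497 to 1.

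Klf3 encodes a repressor that recruits CtBP and that is induced by Klf1 in mouse erythroid cells. All 7 of its probe sets were higher in SRF-null cells, by 0.12 to 0.79, and groups were apart on 3 of them. On the brightest, 1454666_at, the signals were 22590, 19957 and 18774 on SRF-null arrays, against 19919, 15387 and 16737 on control arrays. After normalization SRF-null replicate 3 (14.21) lay below control replicate 1 (14.29), so the groups overlapped. The levels were 14.33 ± 0.12 in SRF-null cells and 14.06 ± 0.22 in control cells (difference 0.27, SE 0.16, 95% interval −0.12 to 0.67, limma adjusted p = 1).

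On Klf3 probe set 1429360_at the signals were 3650, 3962 and 3138 in SRF-null cells, against 3219, 1883 and 2395 in control cells. The normalized groups did not overlap, at 11.83 ± 0.16 in SRF-null cells and 11.26 ± 0.32 in control cells. The difference was 0.57 (SE 0.20, 1.48-fold, unadjusted p = 0.0322 by limma). On 1442920_at the signals were 364, 257 and 288 in SRF-null cells, against 316, 125 and 112 in control cells. Control replicate 1 stood well above the other control arrays, yet the normalized groups were apart (difference 0.79, SE 0.27, unadjusted p = 0.0269 by limma). On 1431630_a_at the groups were also apart, at 8.65 ± 0.07 in SRF-null cells and 8.30 ± 0.24 in control cells (difference 0.35, SE 0.16). The remaining Klf3 probe sets overlapped. Of these, 1441200_at differed by 0.77 (SE 0.47) and had its highest control value on replicate 1 as well, 1421604_a_at differed by 0.23 (SE 0.26) and 1458487_at by 0.12 (SE 0.18).

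**Figure D4:**
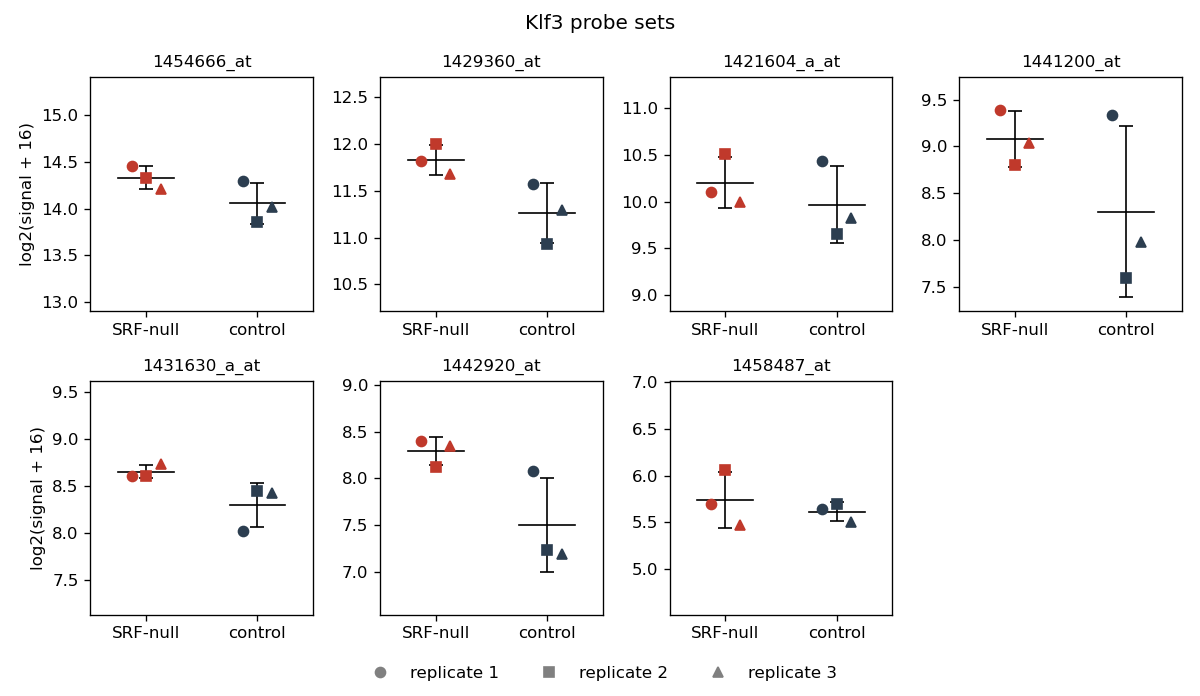
Levels of the 7 Klf3 probe sets on each array, as quantile-normalized log2(signal + 16), ordered from the brightest probe set, with mean ± SD (n = 3) and symbols for the replicate number. The SRF-null mean is above the control mean in every panel, and the groups do not overlap in 1429360_at, 1431630_a_at and 1442920_at.

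Control replicate 1 set much of the spread of Klf3. Without it 1442920_at differed by 1.07 (SE 0.15) and 1441200_at by 1.29 (SE 0.24), with unadjusted limma p-values of 0.000911 and 0.00296. When SRF-null replicate 1 and control replicate 2 were both left out, the brightest probe set differed by only 0.11 (SE 0.21), 1429360_at by 0.41 (SE 0.24), 1441200_at by 0.27 (SE 0.52) and 1442920_at by 0.60 (SE 0.37), and none of the 7 then had an unadjusted limma p under 0.05.

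The KLF genes that are induced early after stimulation did not differ between genotypes beyond the spread between arrays. Klf4, which encodes a factor of monocyte differentiation and of reprogramming to pluripotency, had the widest spread of all members. Its brighter probe set, 1417395_at, gave 48.2, 3037 and 830 on SRF-null replicates 1 to 3, against 148, 537 and 487 on control replicates 1 to 3. SRF-null replicate 2 was the highest array and SRF-null replicate 1 the lowest, and replicate 1 was the lowest array in both genotypes. The difference was 0.63 (SE 1.49, 95% interval −3.02 to 4.28), so that differences of several fold in either direction were not detectable with these arrays. Single arrays decided its size and sign: it was −0.61 (SE 1.36) without SRF-null replicate 2, −0.04 (SE 1.66) without control replicate 1, and 2.23 (SE 0.88, unadjusted p = 0.0526 by limma) without SRF-null replicate 1. Without SRF-null replicate 1 and control replicate 2 it was 2.58 (SE 0.99, unadjusted p = 0.0613 by limma). The other Klf4 probe set, 1417394_at, showed the same low replicate 1, with 30 in SRF-null cells and 49.5 in control cells, and differed by 0.26 (SE 0.97), or by 1.52 (SE 0.73) without SRF-null replicate 1 and control replicate 2.

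Klf2, which encodes a factor of lymphocyte quiescence and trafficking and of endothelium under flow, had a single probe set. Its signals were 152, 266 and 382 in SRF-null cells, against 159, 249 and 207 in control cells. As for Klf4, replicate 1 was the lowest array of each genotype. The difference was 0.27 (SE 0.45, 95% interval −0.83 to 1.37), and it was −0.08 without SRF-null replicate 3, −0.03 without control replicate 1, 0.67 (SE 0.37) without SRF-null replicate 1 and 0.86 (SE 0.40) without SRF-null replicate 1 and control replicate 2. The mean level of a list of 14 immediate early genes was 9.55, 10.92 and 10.03 on SRF-null replicates 1 to 3 and 9.73, 9.87 and 10.53 on control replicates 1 to 3. It was lowest on replicate 1 of each genotype, as for Klf2 and Klf4, and highest on SRF-null replicate 2, where the brighter Klf4 probe set was also highest (the dimmer one was highest on SRF-null replicate 3), and its part in the spread of these genes was not tested.

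Klf6, whose product is needed for early blood and vessel formation in the mouse yolk sac, had near-equal levels on its brighter probe sets. The brightest, 1433508_at, gave 34662, 34432 and 28376 in SRF-null cells, against 36639, 25197 and 34150 in control cells. The groups overlapped fully, with a difference of 0.05 (SE 0.20, 95% interval −0.44 to 0.54). The probe sets 1447448_s_at, 1459718_x_at and 1427742_a_at differed by 0.08, 0.09 and −0.01. Only 1418280_at differed by more, 0.62 (SE 0.43), with 957, 1660 and 913 in SRF-null cells, against 1039, 381 and 992 in control cells. That difference rested on single arrays. It was 0.22 without the low control replicate 2 and 0.34 without the high SRF-null replicate 2.

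Klf10, induced by transforming growth factor beta and encoding a repressor of proliferation, gave 64643, 67920 and 60955 in SRF-null cells, against 72237, 57522 and 67751 in control cells on its single probe set. The control arrays spanned all SRF-null values. The difference of −0.02 (SE 0.15) had a 95% interval of −0.40 to 0.35, a narrow one beside those of Klf2 and Klf4.

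Klf7, Klf12 and Klf13 are not known mainly as early response genes, and their groups also overlapped on the brightest probe sets. Klf7, which encodes a factor best known from neurons and whose forced expression in mouse hematopoietic stem and progenitor cells suppresses their repopulating activity, was lower on all 4 probe sets, by 0.20 to 0.40 in size. The brightest, 1449439_at, gave 5138, 6432 and 3338 in SRF-null cells, against 9504, 6461 and 4479 in control cells. Control replicate 1 was the highest array on all 4 probe sets, which are annotated to 1 sequence record. The difference was −0.40 (SE 0.35, 95% interval −1.27 to 0.47), and it was −0.12 without control replicate 1.

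Klf12, which encodes a CtBP-recruiting repressor that takes part in natural killer cell proliferation in mice, had probe sets that disagreed in direction. On the brightest, 1455521_at, the signals were 1540, 2606 and 862 in SRF-null cells, against 2137, 1480 and 1768 in control cells. The SRF-null arrays spanned the whole control range, with SRF-null replicate 2 highest and SRF-null replicate 3 lowest, and the difference was −0.21 (SE 0.38). The probe sets 1439847_s_at and 1439846_at differed by −0.07 and −0.18 with the same order of SRF-null arrays 2, 1 and 3. The dim probe sets 1441040_at and 1422227_at differed by 0.87 (SE 0.47) and 0.50 (SE 0.23). On 1422227_at the groups were apart, but at signals of 23.3, 38.2 and 26.7 in SRF-null cells against 20.7, 7.81 and 20.3 in control cells, near the bottom of the scale.

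Klf13, whose product drives the chemokine gene Ccl5 in T cells, had the smallest spread of the members on its brightest probe set. Probe set 1436316_at gave 40213, 35057 and 36215 in SRF-null cells, against 39998, 40868 and 37721 in control cells. Its difference was −0.08 (SE 0.12, 95% interval −0.37 to 0.22). The dimmer probe sets 1432543_a_at and 1456030_at differed by −0.25 (SE 0.17) and −0.23 (SE 0.22), and the groups overlapped on all 3.

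No gene in the rest of the family had groups apart. Of 8 other KLF genes 7 had a probe set of their own, and Klf8 did not. All 7 were higher in SRF-null cells, with a median difference of 0.12, but 0 had an unadjusted limma p under 0.05 and all groups overlapped. Klf1, the erythroid factor, was the most variable, at 11.54 ± 1.54 in SRF-null cells and 11.02 ± 0.26 in control cells (difference 0.52, SE 0.75). Klf11, a close relative of Klf10, differed by 0.28 (SE 0.43), Klf5 by 0.15 (SE 0.15) and Klf16 by 0.06 (SE 0.12). Klf14, Klf15 and Klf17 were near the bottom of the scale, with means under 5 in both groups, and differed by 0.06, 0.12 and 0.12. Among 7 measured SP genes 4 were higher and 3 lower (median 0.02), and the smallest p-values belonged to Sp4 (0.18, SE 0.16), Sp5 (−0.15, SE 0.20) and Sp1 (0.06, SE 0.12).

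Genes of proteins that work with or upstream of KLF factors differed from control by at most 0.37 in size. Of 11 corepressor and coactivator genes 5 were higher and 6 lower (median −0.01), and 0 had an unadjusted limma p under 0.05. The deacetylase genes Hdac3 (−0.37, SE 0.18) and Hdac2 (−0.25, SE 0.16) and Fhl3 (0.21, SE 0.24), which encodes a LIM protein that binds the Klf3 product, had the smallest p. Of 12 upstream kinase, MEF2, TGF-beta pathway and ubiquitin ligase genes 7 were higher and 5 lower (median 0.04), again with 0 at an unadjusted p under 0.05. In that list Map2k5, the kinase gene upstream of ERK5, differed by −0.18 (SE 0.15), Wwp1, a ubiquitin ligase gene, by 0.21 (SE 0.18), and Foxo1 by 0.23 (SE 0.19). Groups were apart for 1 of the 11, Hdac3, and for 1 of the 12, Mef2c (0.16, SE 0.15). Among all genes by brightest probe set, groups were apart for 10.6%.

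Reported KLF target genes split in both directions. Of 14 measured targets 8 were higher and 6 lower (median 0.03), and 3 had an unadjusted limma p under 0.05, where 4.95% of all genes had. Thbd, the thrombomodulin gene activated by Klf2 in endothelium, was at 13.19 ± 0.58 in SRF-null cells and 12.02 ± 0.28 in control cells (difference 1.17, SE 0.32). The cyclin gene Ccnd1 was at 13.74 ± 0.04 in SRF-null cells and 12.57 ± 0.83 in control cells (difference 1.18, SE 0.41). Eng, the endoglin gene activated by Klf6, was at 13.03 ± 0.20 in SRF-null cells and 13.69 ± 0.17 in control cells (difference −0.66, SE 0.17). In these 3 genes the groups were apart, and none passed adjustment. Groups were also apart for Fasl, which was lower in SRF-null cells (difference −0.50, SE 0.21) but dim, with signals of at most 18.9. Of the 14 targets, groups were thus apart for 2 higher and 2 lower ones, where 10.6% of all genes had groups apart. S1pr1 and Cdkn1a, which encode an egress receptor and a cell cycle inhibitor, differed by 0.00 (SE 0.22) and 0.16 (SE 0.31). Of 14 immediate early genes 6 were higher and 8 lower (median −0.10). An unadjusted limma p under 0.05 was found for 3, all lower, where 4.95% of all genes had one in either direction. The 3 were Junb (−0.86, SE 0.24), Egr1 (−1.20, SE 0.36) and Atf3 (−0.76, SE 0.27). Groups were apart for Junb and Egr1 and overlapped for Atf3, which was dim, with signals of 6.32 to 40.5. They were also apart for Btg2, which was higher in SRF-null cells (difference 0.69, SE 0.29). The share of all genes with groups apart was 10.6%. Fos had the largest difference of that list in size and was higher in SRF-null cells (difference 3.10, SE 1.72). Its signals were 814, 40279 and 4404 on SRF-null arrays, against 313, 215 and 3465 on control arrays. Its groups overlapped, as did those of Jun (difference 1.22, SE 1.17), and SRF-null replicate 2 was the highest array for both genes.

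Markers of some other cell types were higher in the SRF-null pools. All 10 monocyte and macrophage markers were higher, with a summed signal of 70078 to 111608 on SRF-null arrays and 35008 to 69557 on control arrays, and all were above a signal of 16 on at least 1 array. Those of smallest p were Ctss (0.75, SE 0.19), a lysosomal protease gene, the mannose receptor gene Mrc1 (2.08, SE 0.55) and the complement gene C1qa (1.70, SE 0.56). Of 9 T and NK cell markers 8 were higher, with a summed signal of 7289 to 17225 on SRF-null arrays and 2680 to 4395 on control arrays, and the T cell receptor complex gene Cd3g was under 16 on every array. Those of smallest p were Cd7 (1.74, SE 0.28), the interleukin 7 receptor gene Il7r (2.11, SE 0.51) and Cd247 (0.68, SE 0.18). Groups were apart in 5 of the 9, and Il7r was the largest part of each sum. They overlapped in Cd3e, Cd3g, Cd8a and Ncr1, and Ncr1 was under 16 on every array but SRF-null replicate 3. In both of these lists the groups did not overlap in summed signal or in mean log2 level. For the monocyte and macrophage sum the gap was narrow, from 69557 to 70078. It rested on Ctss, at 35208 to 48865 on SRF-null arrays and 21173 to 28319 on control arrays. Taken singly, 3 of the 10 monocyte and macrophage markers had groups apart, namely Ctss, Mrc1 and C1qa. Among all 18193 genes by brightest probe set, groups were apart for 10.6%, and 8849 genes were higher in SRF-null cells. Of 8 stromal and endothelial markers 5 were higher, with a summed signal of 26877 to 37561 on SRF-null arrays and 20915 to 23415 on control arrays, and the collagen gene Col3a1 was under 16 on every array. That separation rested on Pdgfrb, a pericyte receptor gene that made up most of each sum, at 28124, 18347 and 18707 on SRF-null arrays, against 12791, 13210 and 15948 on control arrays. The other 7 stromal and endothelial markers had overlapping groups, and the mean log2 level of the list overlapped too, at 8.33 to 8.84 on SRF-null arrays and 8.25 to 8.66 on control arrays. In the remaining lists the sums overlapped. All 6 measured B cell markers were higher, with a summed signal of 20593 to 31035 on SRF-null arrays and 20231 to 23211 on control arrays, and Pax5 was under 16 on every array. Of 7 granulocyte markers 4 were higher, with a sum of 212869 to 243768 on SRF-null arrays and 166938 to 241138 on control arrays. Of 5 erythroid markers 4 were higher, with a sum of 43818 to 67907 on SRF-null arrays and 51368 to 61543 on control arrays, and Hba-a1 and Alas2 were under 16 on every array. Of 8 LSK and stem cell markers 3 were higher, with a sum of 329111 to 432562 on SRF-null arrays and 362711 to 476910 on control arrays. The 3′ minus 5′ signal of the Actb control probe sets, which reflects RNA quality, was 0.93 to 1.51 on SRF-null arrays and 1.18 to 1.45 on control arrays on the log2 scale. For the Gapdh control probe sets it was 0.67 to 1.16 on SRF-null arrays and 0.97 to 1.20 on control arrays. The part of other cells or of RNA quality in the Klf9 and Klf3 differences was not tested.

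The genes most like Klf9 across the 6 arrays were found by the root mean square difference from 1428288_at after each gene was centred on its own mean, over 10762 genes above the median level. They were Krt80 (0.16), a keratin gene, Aldh1a1 (0.17), which encodes a retinaldehyde dehydrogenase, Gnb5 (0.17), a G protein beta subunit gene, Rhof (0.18), which encodes a small GTPase of filopodia, and Mboat2 (0.19), which encodes a lysophospholipid acyltransferase. Aldh1a1 gave 7084, 7987 and 7805 in SRF-null cells, against 16708, 24165 and 12104 in control cells. Like Klf9 these 5 genes had every SRF-null array below every control array and their highest value on control replicate 2, with differences of −1.25 to −0.91. Likeness to Klf9 chose them, so their differences are a description and not a test.

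**Figure D5:**
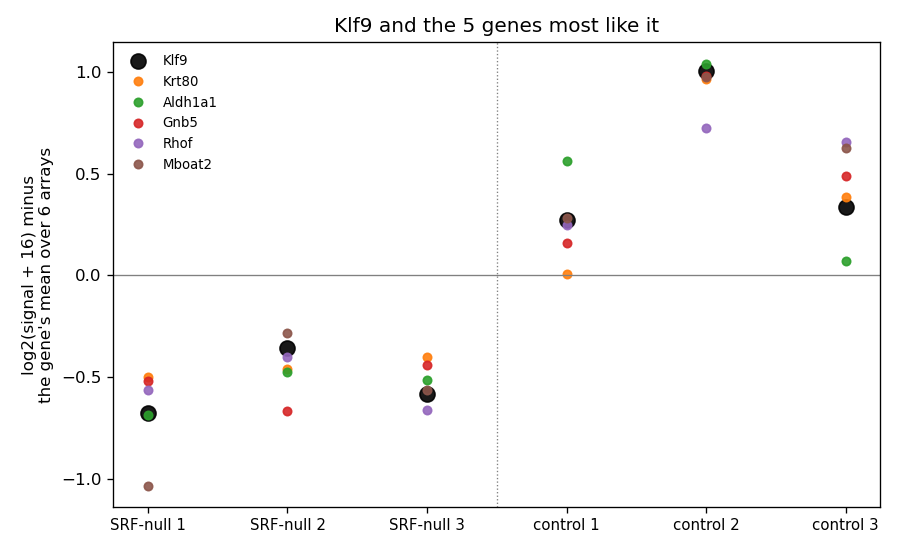
Levels of Klf9 (1428288_at, large black points) and of the 5 genes most like it on each array, as quantile-normalized log2(signal + 16) minus each gene's mean over the 6 arrays, with SRF-null arrays left of the dotted line. All 6 genes are below their mean on the SRF-null arrays and above it on the control arrays, and are highest on control replicate 2.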

How the data were processed

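The deposited table gives each probe set 1 linear intensity per array, a unit read from the values; how the authors summarised, background-corrected and scaled it is not stated in the sources used here. The labels' protocols state that a NuGEN kit amplified and labelled 30 ng of RNA. The design text and the annotation name different array types, and the deposited table of 45101 probe sets was used as it stands. The 64 Affymetrix controls were removed; 34945 probe sets name 1 gene, 932 several and 9160 none.

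Signals were converted to log2(value + 16), and folds on that scale understate changes of dim probe sets. Arrays were quantile normalized because their medians differed, and genotype was the only term in limma 3.58.1 (R 4.3.3). The threshold was 0.05. No detection calls were used and no filter on dim probe sets was applied; 25 of the 35 members were above the median level of all probe sets. The number of arrays limits the precision, and a permutation test of 3 against 3 arrays cannot give a p below 0.1. Lists use the brightest probe set of a gene. By rule, text names Srf, all members, other KLF genes, the 5 genes most like Klf9 and the 3 genes of smallest p in each pathway list; cell type markers and others named were chosen after their values were seen. The members and lists were chosen with earlier results of these data known.

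Deviations from the group means of arrays with equal replicate numbers correlated at 0.473, 0.21 and 0.427, over the limit of 0.1, so the numbers were taken to pair the arrays. The main test left this pairing out, and a block on the replicate number was run as an alternative. Motifs were searched on both strands, CArG as CC, 6 A or T, GG, and MEF2 as CTA, 4 A or T, TAG; MEF2 was added after the sequences were seen. Scripts were tested on simulated data. Figures used matplotlib 3.10.9.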

Additional observations from a re-analysis of the deposited data

How the results depend on the processing

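In 15 alternatives (offsets of 1 and 64, median centring, no normalization, brighter probe sets only, a trended and robust variance, the replicate number as a block, 1 probe set per gene, each array left out, and SRF-null replicate 1 left out with control replicate 2) 0 member probe sets passed adjustment, and the lowest adjusted p of a member was 0.497. Of the 35 member probe sets 21 kept their sign throughout, among them 6 of 7 for Klf3 and for Klf9. With the replicate number as a block 7 members had an unadjusted p under 0.05 (main setting 6), and it changed no call after adjustment. That block moved the SE of Klf4 1417394_at from 0.97 to 0.26 (unadjusted p = 0.371 by limma). The unadjusted limma p of Klf3 1441200_at went from 0.148 to 0.044, and that of Klf3 1429360_at from 0.0322 to 0.0529. Over all probe sets 1 passed with median centring (Mocs1), and 0 to 1 did with an array left out (Ccnb1ip1 without control replicate 2). The 8 member probe sets with groups apart became 5 among brighter probe sets, 1 with 1 probe set per gene, 14 without SRF-null replicate 1 and control replicate 2, and 8 to 14 with an array left out, where fewer arrays make separation likelier. The 6 with an unadjusted p under 0.05 became 1 with 1 probe set per gene.

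Without SRF-null replicate 1 and control replicate 2 the Klf6 probe sets 1433508_at, 1447448_s_at and 1459718_x_at turned to −0.16, −0.16 and −0.11, and with no normalization 1427742_a_at was at 0.00; the cause was not tested. With an array left out, Klf2 ranged from −0.08 to 0.67, Klf3 1458487_at from −0.03 to 0.27, Klf4 1417395_at from −0.61 to 2.23 and 1417394_at from −0.38 to 1.23, Klf6 1433508_at from −0.13 to 0.17, 1447448_s_at from −0.09 to 0.17, 1459718_x_at from −0.09 to 0.24 and 1427742_a_at from −0.10 to 0.15, Klf7 1419355_at from −0.45 to 0.00, Klf9 1436952_at from −0.04 to 0.07, Klf10 from −0.13 to 0.06, Klf12 1455521_at from −0.60 to 0.15, 1439847_s_at from −0.50 to 0.24 and 1439846_at from −0.57 to 0.09, and the dimmer Srf probe set 1418256_at from −0.20 to 0.40. The signal of Klf14, Klf15, Klf17 and the dim Klf9 and Klf12 probe sets is too near the bottom of the scale to show small differences.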

Other observations

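Klf9 is known as a glucocorticoid-induced gene, and 8 other such genes were looked up after the values of Klf9 were seen, so they are given as values only. Of these 7 were lower in SRF-null cells and 1 higher, with a median difference of −0.20 where the median over all genes was −0.01. Per1, a circadian clock gene, had the largest difference, at 10.22, 11.09 and 10.96 on SRF-null arrays and 11.67, 12.26 and 12.15 on control arrays (difference −1.27, SE 0.29, limma unadjusted p = 0.00475, adjusted p = 0.953). The kinase gene Sgk1 also had groups apart, at 12.74 ± 0.22 in SRF-null cells and 13.22 ± 0.06 in control cells (difference −0.49, SE 0.15). These 2 of 8 genes also had an unadjusted limma p under 0.05. By brightest probe set, 10.6% of all genes had groups apart and 4.95% had such a p. Fkbp5 (−0.40, SE 0.27), Tsc22d3 (−0.20, SE 0.13), Ddit4 (−0.20, SE 0.18), Zbtb16 (−0.15, SE 0.25), Mt2 (−0.17, SE 0.97) and Errfi1 (0.19, SE 0.94) had overlapping groups. The labels used here give no time of day for cell collection.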
